A study of Rattus norvegicus with 18 samples.

Results

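The genes described here mark B and T lymphocytes or draw them into tissue: Ms4a1, Cr2, Cxcl13, Cd3d, Cd3e, Lck, Cd4, Cd8a and Cd69. They were taken by symbol, as every probe set of a rat whole-genome expression array whose only platform symbol is one of these names. This gave 16 of the 31042 probe sets that are not controls, for 9 of the 14217 genes named on the array. Cr2 has 5 probe sets, Cd8a has 3, Cd3e has 2 and each other gene has 1. Their signal was followed over 9 arrays of subcutaneous abdominal fat, with 9 arrays of hypothalamus as the contrast. The rats fell into 3 treatment groups, with 3 arrays for each group in each tissue. RYGB-Success rats lost weight after Roux-en-Y gastric bypass, in which food passes from a small pouch of the stomach straight into a lower stretch of the small intestine. RYGB-Fail rats had the same operation and gained weight. Pair-Fed rats received as much food as the operated rats. Strain, sex, age, time after surgery and whether Pair-Fed rats had a sham operation are not known from the labels. The design names the 3 RNA samples of a group as biological replicates but does not say how many animals stand behind each, so the tests measure the spread between these samples.

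Lymphocytes are rare in healthy adipose tissue, where macrophages are usually the more numerous immune cells. Subcutaneous fat pads also hold lymph nodes, in which B cells gather in follicles around follicular dendritic cells that carry Cr2 and release Cxcl13, while T cells lie in the neighbouring zone. T cells recognise antigen through a receptor whose signal passes through the CD3 chains and the kinase Lck, helped by the coreceptors CD4 or CD8, and recently stimulated lymphocytes show CD69 at their surface.

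Library quality touches several of the results. The deposited signals were scaled to the same trimmed mean on every array. The median signal ran from 98.2 to 200.0 on 8 fat arrays and was 288 on RYGB-Fail 3, which also correlated least with the other fat arrays (median r of 0.730 on the log2 scale, against 0.794 to 0.848 for the others). RYGB-Fail 3 had the highest signal of the 9 fat arrays for 30.4% of the probe sets tested. The tissue labels fitted their defining markers: the mean log2 signal of 8 adipocyte genes was 10.7 to 12.3 on fat arrays and 3.30 to 6.10 on hypothalamus arrays, and that of 8 neuron genes was 11.3 to 11.9 in hypothalamus and 4.74 to 7.44 in fat.

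RefSeq promoter windows on the GRCr8 rat assembly, from 250 bases before a start site to 50 after it, were matched by symbol for Cr2, Cxcl13, Cd3d, Cd3e, Lck and Cd8a, and Lck has 2 of them; Ms4a1, Cd69 and Cd4 were not matched. They are shown because most of these genes peaked together on 1 array and because Cd3d and Cd3e are neighbours on chromosome 8, with Cd3g on the other side of Cd3d. Capitals mark the ETS core AGGAAG, which reads CTTCCT when it lies on the opposite strand, the Runx core TGTGGT and the TATA box TATAAA. Each window is written 5′ to 3′ on the strand of its gene.
Cd3d, chr8:54185269-54185568, plus strand: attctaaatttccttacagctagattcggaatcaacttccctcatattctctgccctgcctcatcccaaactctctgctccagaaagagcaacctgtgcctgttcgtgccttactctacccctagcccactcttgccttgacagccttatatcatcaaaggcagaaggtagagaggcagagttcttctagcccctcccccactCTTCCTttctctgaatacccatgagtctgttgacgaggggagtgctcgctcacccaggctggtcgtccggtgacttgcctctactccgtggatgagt
Cd3e, chr8:54211721-54212020, minus strand: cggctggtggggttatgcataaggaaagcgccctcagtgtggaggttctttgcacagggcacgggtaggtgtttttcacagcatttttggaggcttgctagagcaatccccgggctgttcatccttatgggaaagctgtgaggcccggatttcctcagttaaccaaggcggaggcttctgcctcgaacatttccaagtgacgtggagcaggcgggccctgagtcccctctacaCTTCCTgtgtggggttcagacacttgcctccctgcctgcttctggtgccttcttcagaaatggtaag
Lck, chr5:147201218-147201517, minus strand: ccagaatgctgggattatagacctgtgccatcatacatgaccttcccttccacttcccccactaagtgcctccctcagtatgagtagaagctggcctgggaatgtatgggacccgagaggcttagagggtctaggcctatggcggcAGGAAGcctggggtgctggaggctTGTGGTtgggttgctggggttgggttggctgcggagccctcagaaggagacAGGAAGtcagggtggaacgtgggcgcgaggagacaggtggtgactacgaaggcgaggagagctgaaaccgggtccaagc
Cr2, chr13:109244457-109244756, minus strand: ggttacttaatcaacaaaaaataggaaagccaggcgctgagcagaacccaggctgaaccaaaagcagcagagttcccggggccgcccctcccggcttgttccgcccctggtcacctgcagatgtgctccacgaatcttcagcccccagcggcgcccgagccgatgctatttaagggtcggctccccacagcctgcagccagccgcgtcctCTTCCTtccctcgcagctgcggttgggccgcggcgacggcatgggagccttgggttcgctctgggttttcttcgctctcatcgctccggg
Cxcl13, chr14:13917871-13918170, minus strand: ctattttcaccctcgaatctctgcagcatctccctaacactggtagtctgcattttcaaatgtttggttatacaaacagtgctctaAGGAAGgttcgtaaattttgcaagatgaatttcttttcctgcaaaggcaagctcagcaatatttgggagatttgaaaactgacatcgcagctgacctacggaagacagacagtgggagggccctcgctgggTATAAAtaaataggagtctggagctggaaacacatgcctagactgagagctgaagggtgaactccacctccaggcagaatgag
Each of these 5 genes holds the ETS core, searched on both strands, at -47 to -42 from the start site in Cd3d, at -17 to -12 in Cd3e and at -40 to -35 in Cr2. The window of Lck shown has 2 copies, its other window has 1, and Cxcl13 has 1 at -164 to -159. Cd8a has none in its window, which makes 5 of 6 genes, while 34.5% of the 33469 RefSeq windows of this length hold the core. Cxcl13 alone of the 6 has TATAAA, at -33 to -28 (14.2% of all windows), and Lck alone has TGTGGT (17.3%). The octamer ATGCAAAT, AGATAA and the NF-kB motif, searched on both strands, had no match in these windows (1.78%, 11.6% and 0.362% of all windows). None of the searched motifs overlaps another in these windows.

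The lymphocyte signal in fat lay mainly on the array RYGB-Success 3. That array had the highest signal of the 9 fat arrays for 14 of the 16 probe sets, where 14.6% of all tested probe sets were highest there. The exceptions were Cxcl13, highest on RYGB-Fail 1, and Cd4, highest on RYGB-Fail 3. For 8 of the 16 probe sets RYGB-Success 3 exceeded the next highest fat array more than 2-fold, which held for 1.28% of all tested probe sets, and for 4 of them more than 4-fold, against 0.242%. These 4 belong to Cd3e (7.23-fold), Cd3d (6.81-fold), Cd8a (5.70-fold) and Cr2 (5.07-fold). The genes were chosen with earlier results of these data known, so these counts are descriptions and not independent support. The 16 probe sets include several of the same gene and some too dim to be tested. The second highest array was RYGB-Fail 3 for 7 probe sets, RYGB-Success 2 for 4, RYGB-Success 1 for 3 and another array for the remaining 2. In bulk tissue more lymphocytes and more RNA per lymphocyte cannot be told apart.

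**Figure D1:**
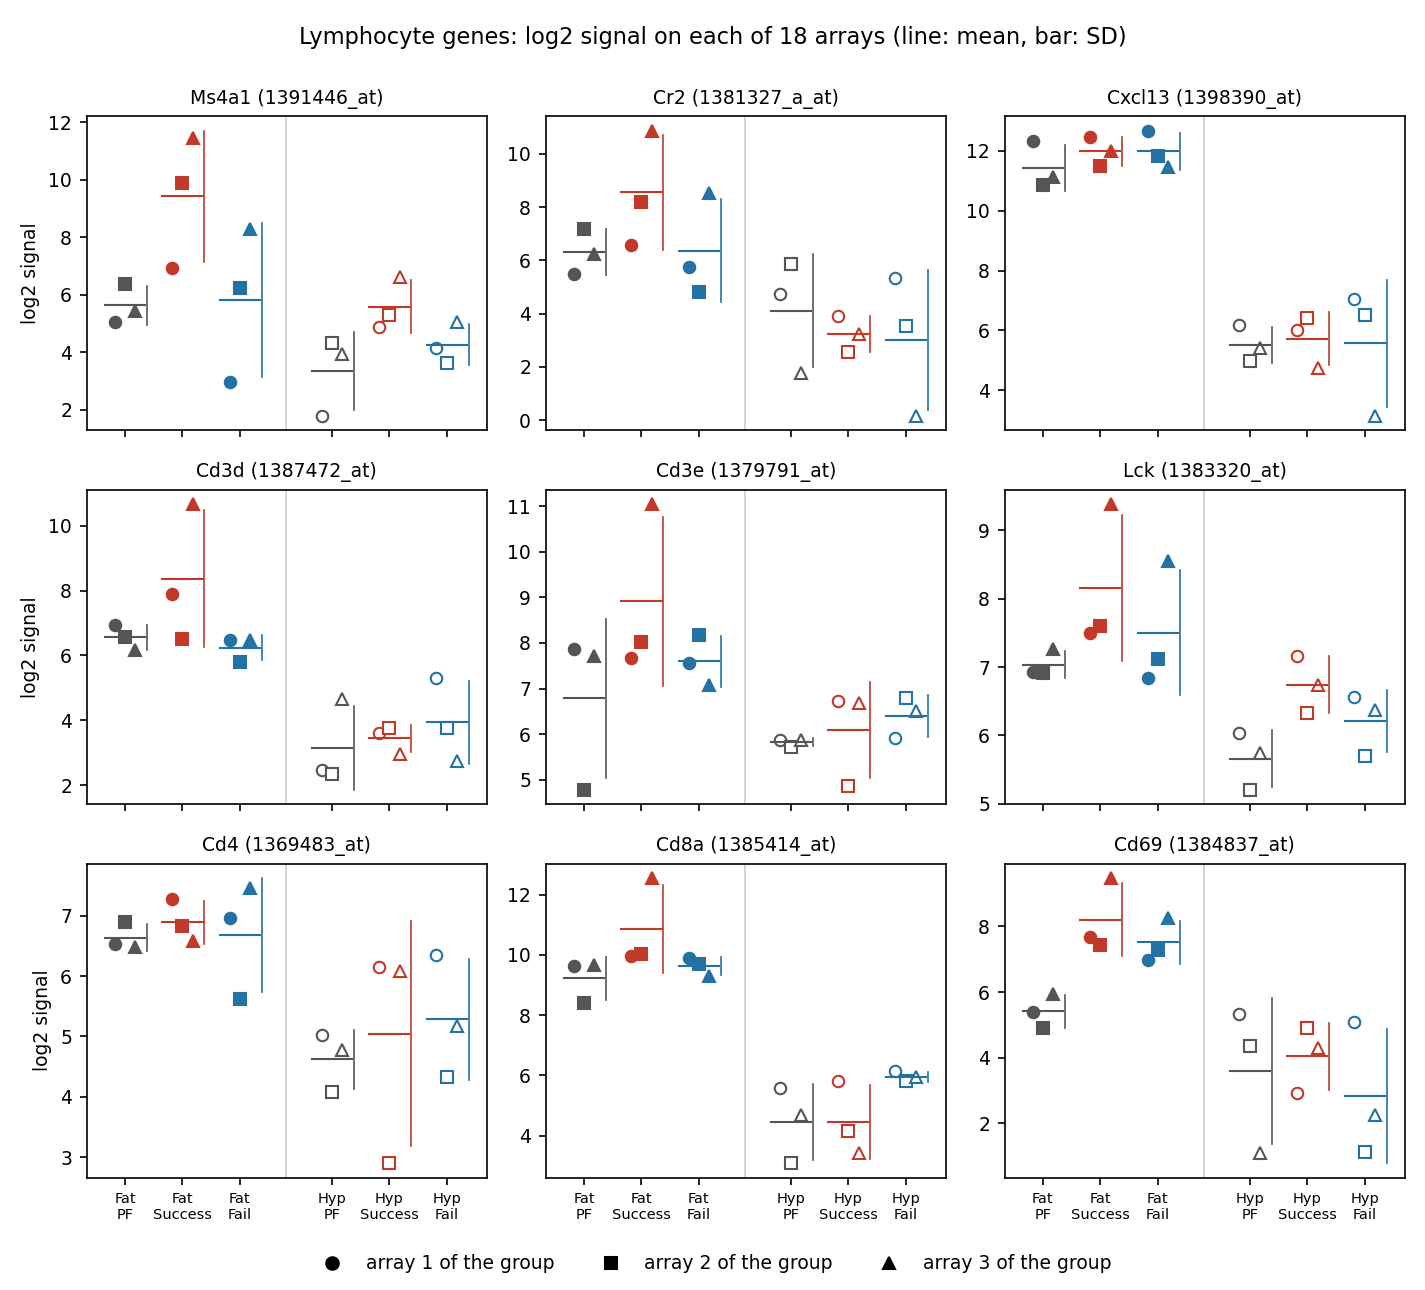
Log2 signal (vertical axis) of the probe set of each of the 9 genes with the highest mean in fat, on 9 fat arrays (filled symbols) and 9 hypothalamus arrays (open symbols), by group; PF is Pair-Fed and Hyp is hypothalamus. Circles, squares and triangles are arrays 1, 2 and 3 of a group, the horizontal line is the mean and the bar is 1 SD (n = 3). The filled red triangle, RYGB-Success 3, is the highest fat point in 7 of the 9 panels, all but Cxcl13 and Cd4.

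The place of a probe set within its own array does not depend on the scaling. Ms4a1 stood above 94.8% of the probe sets of RYGB-Success 3 and above 84.9% of those of RYGB-Success 2, but above 9.88% to 52.9% on the other 7 fat arrays. Cd3d stood above 90.9% on RYGB-Success 3 and above 20.8% to 59.7% on the others, with RYGB-Success 2 at 32.6%. Cd69 stood above 15.2% to 28.9% on the Pair-Fed arrays, 52.2% to 81.0% on the RYGB-Success arrays and 52.6% to 59.0% on the RYGB-Fail arrays. On RYGB-Fail 3, whose signals were high in general, Cd3d had its lowest place (20.8%) and Ms4a1 and Cr2 lay in the middle range (52.9% and 45.5% to 59.9%).

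**Figure D2:**
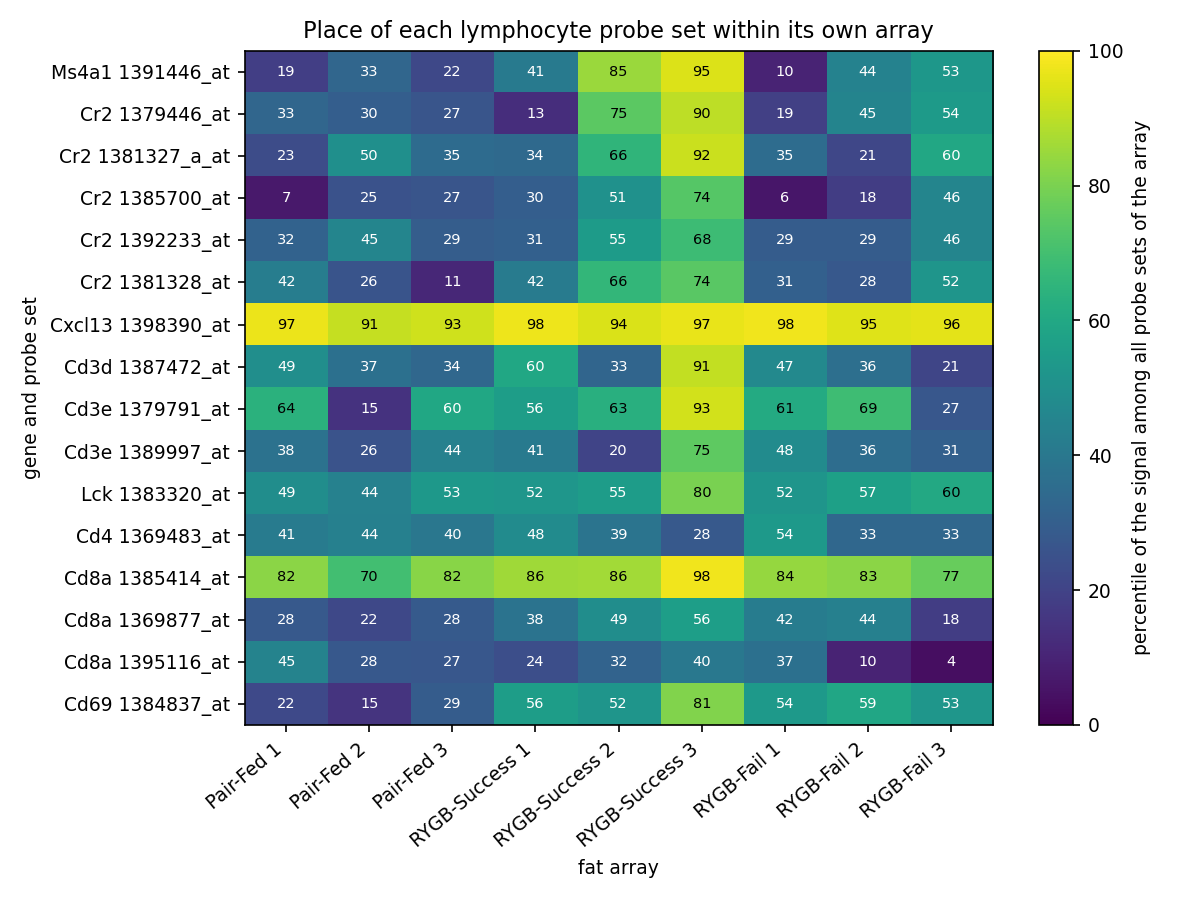
Percentile of each lymphocyte probe set (rows) among all 31042 probe sets of the same array, for the 9 fat arrays (columns); the colour and the printed number are the percentile, and a row should be read along its arrays. RYGB-Success 3 holds the highest percentile in 13 of the 16 rows, while Cxcl13 stays between 91.3 and 97.9 on every array and Cd4 reaches its lowest value, 27.9, on RYGB-Success 3.

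Group differences were tested with limma on log2 signal over 18625 probe sets, the upper 60% by mean signal in fat (mean of at least 88.9 signal units), with Benjamini-Hochberg adjustment and a threshold of 0.05. The filter passed 13 of the 16 probe sets, covering all 9 genes, and left out Cr2 1385700_at and Cd8a 1369877_at and 1395116_at. It used the mean over all fat arrays, so high signals on RYGB-Success 3 helped some dim probe sets to pass. Ms4a1 and Cr2 1379446_at exceeded 88.9 on only 4 and 3 fat arrays. Counts and medians of the 13 therefore lean towards RYGB-Success. Without the filter all 16 had a higher mean in RYGB-Success than in Pair-Fed, with a median difference of 1.71 against 0.19 over all probe sets. Between RYGB-Success and Pair-Fed no lymphocyte probe set passed (0% of all probe sets did), and the lowest adjusted p in limma was 0.564, for Cd69. All 13 had a higher mean in RYGB-Success, as did 58.2% of all tested probe sets, with a median difference of 1.79 on the log2 scale against 0.11 over all of them. At an unadjusted p under 0.05 in limma, 5 were higher (1.84% of all were) and 0 were lower (3.02%). For 5 of the 13 every RYGB-Success array exceeded every Pair-Fed array, against 10.9% of all: Ms4a1, Cr2 1381328_at, Lck, Cd8a 1385414_at and Cd69. Quantile normalization and median centring moved the median over all probe sets from 0.11 to -0.02 and -0.27, and the lymphocyte median to 1.64 and 1.42.

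Without RYGB-Success 3 the median difference from Pair-Fed of the 13 probe sets was 0.66, against 0.08 over all tested probe sets. Of the 13, 12 were still higher, from Ms4a1 at 2.78 down to Cd3e 1389997_at at -0.09, and 5 did not overlap with Pair-Fed, where 15.5% of all probe sets were higher in this way. Ms4a1, Cd69 and Cr2 1381328_at kept differences above 2 on the log2 scale (2.78, 2.15 and 2.11), while the other 3 tested Cr2 probe sets were at 0.64, 0.66 and 1.07. Cd3d, Cd8a and Lck were at 0.64, 0.78 and 0.51. All adjusted p in limma were then 1.00.

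**Figure D3:**
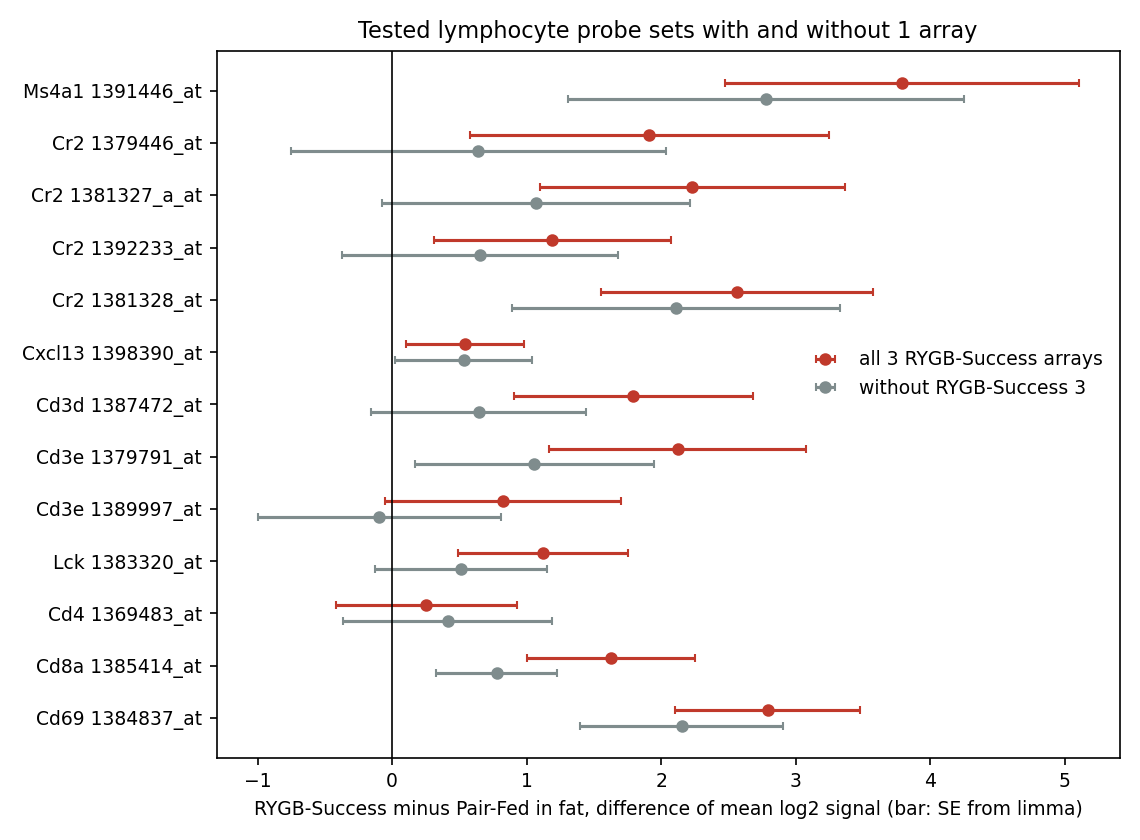
Difference of mean log2 signal between RYGB-Success and Pair-Fed in fat (horizontal axis) for the 13 tested lymphocyte probe sets, with all 3 RYGB-Success arrays (red) and without RYGB-Success 3 (grey); bars are standard errors from limma. Most red points lie right of their grey partner, with Cd3d moving from 1.79 to 0.64 and Cd3e 1379791_at from 2.12 to 1.06, while Cxcl13 is at 0.54 and 0.53.

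Between RYGB-Success and RYGB-Fail 12 of the 13 were higher in RYGB-Success (62.6% of all tested probe sets were), and none passed (0% of all did; limma, lowest adjusted p of 0.827). At an unadjusted p under 0.05 in limma, Ms4a1 and Cd3d were higher, 2 of 13 against 3.43% of all. The median difference was 1.26 against 0.17 over all probe sets. The lymphocyte median was 0.37 without RYGB-Success 3 and 0.83 without RYGB-Fail 1. Groups did not overlap for 2 tested probe sets, Cd3d and Cd8a 1385414_at, where 5.26% of all were higher without overlap. Without RYGB-Fail 3, in contrast, 1116 of the 18625 probe sets passed, and Ms4a1 was the 1 of the 13 lymphocyte probe sets among them. These shares are close to each other. Between RYGB-Fail and Pair-Fed 11 of 13 were higher (41.9% of all), none passed (0% of all; limma, lowest adjusted p of 1.00), and the median difference was 0.38 against -0.09 over all. That median was -0.19 without RYGB-Fail 3 and 0.08 with array weights, limma's weighting of each array by its fit. Only Cd69 had an unadjusted p under 0.05 in that comparison (1.42% of all were higher at that level). Without RYGB-Fail 3, 4 of the 13 were higher in RYGB-Fail. The 2 comparisons with Pair-Fed share its 3 arrays.

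Ms4a1 encodes CD20, a membrane protein of B cells. Its signal was 33.5, 83.2 and 43.4 on the Pair-Fed arrays, 122, 950.0 and 2774 on the RYGB-Success arrays and 7.79, 76.2 and 309 on the RYGB-Fail arrays. Every RYGB-Success array exceeded every Pair-Fed array, RYGB-Success 1 narrowly, while RYGB-Fail 3 exceeded RYGB-Success 1. The mean log2 signal was 9.42 ± 2.29 in RYGB-Success and 5.63 ± 0.68 in Pair-Fed (SD, n = 3), a difference of 3.79 ± 1.31 (SE; limma, adjusted p of 0.789). With Pair-Fed signals below 88.9 raised to that value the ratio was 7.71. RYGB-Success 3 alone held 63.1% of the signal summed over the 9 fat arrays. The difference from RYGB-Fail was 3.59 ± 1.31 (limma, adjusted p of 0.827), and 2.16 without RYGB-Fail 1 (limma, adjusted p of 0.685), 2.58 without RYGB-Success 3 (limma, adjusted p of 0.998) and 4.81 without RYGB-Fail 3 (limma, adjusted p of 0.041). In that last setting 1116 of the 18625 tested probe sets passed.

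Cr2 encodes complement receptor 2, found on mature B cells and follicular dendritic cells. Its probe set 1381327_a_at read 45.4, 147 and 75.8 in Pair-Fed, 96.5, 290.0 and 1875 in RYGB-Success and 54.0, 27.9 and 370 in RYGB-Fail. Probe set 1379446_at read 69.6, 74.1 and 55.2 in Pair-Fed, 22.7, 463 and 1441 in RYGB-Success and 25.1, 78.1 and 321 in RYGB-Fail. In both, RYGB-Success 2, RYGB-Success 3 and RYGB-Fail 3 were the highest arrays, and RYGB-Success 1 lay among or below the Pair-Fed arrays. The other 3 probe sets had the same 3 arrays on top, with 386 to 495 on RYGB-Success 3, 166 to 300.0 on RYGB-Success 2 and 256 to 302 on RYGB-Fail 3. Differences from Pair-Fed of the 4 tested probe sets ran from 1.19 ± 0.88 to 2.56 ± 1.01, the last of them for 1381328_at (SE; limma, adjusted p of 0.887), where RYGB-Success did not overlap with Pair-Fed. All Pair-Fed means of Cr2 lay under 88.9, and with signals below it raised to that value the 4 differences were 0.90 to 2.13, with 1.53 for 1381328_at. Without RYGB-Success 3 the difference of 1379446_at was 0.64 and without RYGB-Success 1 it was 3.63. Probe sets 1381327_a_at and 1392233_at are annotated to the same transcript record and so are not separate evidence.

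Cxcl13, the chemokine that attracts B cells into follicles, did not follow this pattern. Its signal was 5101, 1868 and 2260 in Pair-Fed, 5649, 2865 and 4114 in RYGB-Success and 6570, 3607 and 2810 in RYGB-Fail. The 3 groups overlapped, and array 1 was the highest of each group. The difference between RYGB-Success and Pair-Fed was 0.54 ± 0.44 (SE; limma, adjusted p of 0.975), and 0.26 without Pair-Fed 2 to 0.98 without Pair-Fed 1. RYGB-Success and RYGB-Fail had the same mean log2 signal of 11.98 (SD of 0.49 and 0.63, n = 3). RYGB-Success 3 held 11.8% of the summed fat signal, close to an equal share among 9 arrays.

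Cd3d encodes the delta chain of CD3, part of the T cell receptor complex. Its signal was 123, 95.1 and 72.1 in Pair-Fed, 237, 91.8 and 1616 in RYGB-Success and 88.7, 55.6 and 88.3 in RYGB-Fail. RYGB-Success 3 stood alone, with 65.5% of the summed fat signal, and RYGB-Success 2 lay within the Pair-Fed range. The difference from Pair-Fed was 1.79 ± 0.89 (SE; limma, adjusted p of 0.975), and it was 0.64 without RYGB-Success 3 and 2.71 without RYGB-Success 2. All RYGB-Success arrays exceeded all RYGB-Fail arrays, RYGB-Success 2 narrowly, with a difference of 2.11 ± 0.89 (limma, adjusted p of 0.842), which was 0.96 without RYGB-Success 3.

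Cd3e, the epsilon chain, was also highest on RYGB-Success 3. Probe set 1379791_at read 234, 27.6 and 209 in Pair-Fed, 202, 261 and 2105 in RYGB-Success and 188, 291 and 134 in RYGB-Fail. Apart from RYGB-Success 3 and the low Pair-Fed 2, all arrays lay between 134 and 291. Its difference from Pair-Fed was 2.12 ± 0.96 (SE; limma, adjusted p of 0.975) with all arrays, 1.06 without RYGB-Success 3 and 1.12 without Pair-Fed 2. Probe set 1389997_at read 516 on RYGB-Success 3 and 48.4 to 160 on the other 8 fat arrays, and its difference from Pair-Fed changed from 0.83 ± 0.88 to -0.09 without that array.

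Lck, the kinase that starts T cell receptor signalling, was 121, 121 and 154 in Pair-Fed, 180, 194 and 668 in RYGB-Success and 115, 138 and 375 in RYGB-Fail. RYGB-Success did not overlap with Pair-Fed, although 2 of its 3 arrays (180 and 194) lay only a little above the highest Pair-Fed array (154), and RYGB-Fail 3 was the second highest array. The difference from Pair-Fed was 1.12 ± 0.63 (SE; limma, adjusted p of 0.975).

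Cd8a encodes the alpha chain of the CD8 coreceptor of cytotoxic T cells, which some dendritic and natural killer cells also carry. Probe set 1385414_at read 785, 340 and 811 in Pair-Fed, 1006, 1054 and 6013 in RYGB-Success and 951, 823 and 635 in RYGB-Fail. RYGB-Success overlapped with neither other group, but its arrays 1 and 2 lay only just above RYGB-Fail 1. The difference was 1.63 ± 0.62 from Pair-Fed (SE; limma, adjusted p of 0.855) and 1.23 ± 0.62 from RYGB-Fail (limma, adjusted p of 0.895). Without RYGB-Success 3 these were 0.78 and 0.38. The 2 dim probe sets, which were not tested, also peaked on RYGB-Success 3, at 244 and 147.

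Cd4, the coreceptor of helper T cells, which rat macrophages also carry, did not share the peak. Its signal was 92.4, 119 and 89.8 in Pair-Fed, 156, 113 and 95.4 in RYGB-Success and 125, 49.3 and 175 in RYGB-Fail. All groups overlapped, and RYGB-Success 3 was the lowest array of its group. The difference from Pair-Fed was 0.25 ± 0.67 (SE; limma, adjusted p of 0.978), with values of -0.18 under quantile normalization and -0.12 under median centring.

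Cd69, an early activation marker of lymphocytes that tissue-resident T cells keep, was higher on every array of operated rats than on any Pair-Fed array. Its signal was 42.1, 30.0 and 61.0 in Pair-Fed, 205, 175 and 714 in RYGB-Success and 127, 156 and 307 in RYGB-Fail. The 6 arrays of operated rats did not overlap with the Pair-Fed arrays, and the operated groups overlapped with each other. The mean log2 signal was 8.20 ± 1.11 in RYGB-Success, 7.51 ± 0.67 in RYGB-Fail and 5.41 ± 0.51 in Pair-Fed (SD, n = 3). The difference from Pair-Fed was 2.79 ± 0.69 in RYGB-Success (SE; limma, unadjusted p of 0.002, adjusted p of 0.564) and 2.10 ± 0.69 in RYGB-Fail (limma, unadjusted p of 0.010, adjusted p of 1.00). With Pair-Fed signals raised to 88.9 the ratios to Pair-Fed were 3.31 and 2.06. In RYGB-Fail against Pair-Fed, 2.57% of all tested probe sets were higher with no overlap.

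Other lymphocyte genes, from lists likewise chosen with earlier results of these data known, had their peak on the same array. Counts for these and the later lists stand against the following shares of all tested probe sets. On RYGB-Success 3, 14.6% were highest, and 58.2% had a higher mean in RYGB-Success than in Pair-Fed. At an unadjusted p under 0.05 in limma, 1.84% were higher in RYGB-Success than in Pair-Fed and 3.02% were lower. Of 25 further T cell genes on the array, 20 were highest on RYGB-Success 3, and the mean log2 signal of the list was 9.51 there and 6.81 to 7.47 on the other 8 fat arrays. Of 17 tested, 15 had a higher mean in RYGB-Success than in Pair-Fed, with a median difference of 0.92, and 0 passed (limma; 1 at an unadjusted p under 0.05). Without RYGB-Success 3 the median was 0.08, the same as over all tested probe sets (0.08), and 10 of 17 were higher. Lef1, a transcription factor of naive T cells, read 7508 on RYGB-Success 3 and 410 to 942 elsewhere. Tcf7, its relative, read 5572 there and 371 to 789 elsewhere, and the costimulatory receptor Icos read 1050 and 128 to 321.

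Of 14 further B cell genes on the array, 10 were highest on RYGB-Success 3, with a list mean of 9.03 there and 5.90 to 7.13 on the other fat arrays. Of 9 tested, 8 had a higher mean in RYGB-Success than in Pair-Fed, with a median difference of 0.85, or 0.46 with 6 of 9 higher without RYGB-Success 3, and 0 passed (limma; 2 at an unadjusted p under 0.05). Pou2af1, a coactivator of B cell transcription, read 93.9 on RYGB-Success 1, 512 on RYGB-Success 2 and 2007 on RYGB-Success 3, and at most 177 on the other arrays. The B cell kinase Blk read 145, 214 and 661 on the RYGB-Success arrays, and the B cell scaffold Bank1 read 149, 408 and 1155. RYGB-Success 2 came second for these 3 genes, which were named for the lowest p between RYGB-Success and Pair-Fed. Fcrla, the next by p, did not share this order. It read 440, 330 and 2512 in RYGB-Success, 150, 181 and 630 in RYGB-Fail and 316, 354 and 190 in Pair-Fed. Over the whole list RYGB-Fail 3 came second (7.13), above RYGB-Success 2 (6.96).

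Fewer plasma cell and cytotoxic genes peaked on that array, 1 of 6 plasma cell genes and 4 of 13 natural killer and cytotoxic genes, although both list means were highest there (8.69 and 7.84, against 6.54 to 8.48 and 6.54 to 7.26 on the other fat arrays). Mzb1, a chaperone of antibody-secreting cells, read 4.96, 58.0 and 137 in Pair-Fed, 318, 421 and 1336 in RYGB-Success and 283, 483 and 222 in RYGB-Fail. All operated arrays exceeded all Pair-Fed arrays for this gene, as for Cd69, with a difference of 4.05 ± 1.02 between RYGB-Success and Pair-Fed (SE; limma, adjusted p of 0.584). That difference rests partly on the dim Pair-Fed signals and was 2.46 with signals below 88.9 raised to that value. Jchain, which joins IgA and IgM units, read 804, 586 and 951 in RYGB-Success against 175, 261 and 384 in Pair-Fed (difference of 1.56 ± 0.49; limma, adjusted p of 0.735). In RYGB-Fail it read 314, 1153 and 629, so its highest fat array was RYGB-Fail 2. Of 5 tested plasma cell genes 4 were higher in RYGB-Success (2 at an unadjusted p under 0.05 in limma, 0 passed), and of 10 cytotoxic genes 10 were higher with a median of 0.85, or 0.28 with 9 of 10 higher without RYGB-Success 3 (none at an unadjusted p under 0.05 in limma, 0 passed).

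Genes of lymph node stroma and homing had high signals on the same arrays. Of 18 on the array, a list that includes Cr2 and Cxcl13, 11 were highest on RYGB-Success 3, and the list mean was 9.69 there, 8.39 on RYGB-Success 2 and 6.63 to 7.82 on the other fat arrays. Glycam1, a sulfated ligand for L-selectin made by the venules through which lymphocytes enter lymph nodes and also by mammary epithelium, read 15091 on RYGB-Success 3, 831 on RYGB-Success 2 and 5.83 to 201 on the other 7. Ccl19, the chemokine of the T cell zone, read 1418 on RYGB-Success 3 and 20.8 to 188 elsewhere. Mfge8 was highest on RYGB-Success 2 (3123), followed by RYGB-Success 3 (1499), with 107 to 333 on the others. The epithelial gene Elf5 had the same order on these arrays (1908 and 761). Of the 10 tested genes of the list 7 were higher in RYGB-Success than in Pair-Fed, with a median difference of 0.32, or 0.36 without RYGB-Success 3. The 3 at an unadjusted p under 0.05 in limma are Glycam1, Ccl19 and Mfge8, which were named for their low p, and 0 passed. Their part in the lymphocyte result was not tested.

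Markers of epithelium and blood were also high on these arrays. The mean log2 signal of 14 epithelial genes was 8.99 on RYGB-Success 2 and 8.64 on RYGB-Success 3, 7.21 on RYGB-Fail 3 and 4.91 to 5.84 on the other 6. Krt5, a keratin of basal epithelium, read 1094 and 1070 on RYGB-Success 2 and 3 and 35.2 to 225 on the others, and Elf5, a mammary epithelial factor, read 1908 and 761 against 40.8 to 146. The mean of 8 blood cell genes was highest on RYGB-Success 3 (9.26, against 6.27 to 8.18), where the haemoglobin gene Hbb read 37918, compared with 2562 to 17093 on the other fat arrays. Of 5 tested blood cell genes 4 were higher in RYGB-Success than in Pair-Fed. At an unadjusted p under 0.05 in limma 2 were higher and 1 was lower, and 0 passed. The lower gene, Pf4, read 566 on RYGB-Success 3 and 1061 to 2760 in Pair-Fed. The mean of 8 adipocyte genes was 11.0 on RYGB-Success 3 and 10.7 to 12.3 on the others. None of these markers is listed at 0, since the deposited signal is always positive. What part epithelium or blood has in the lymphocyte signal was not tested. In RYGB-Fail the mean of 11 skeletal muscle genes was 11.9, 14.1 and 8.81, while Pair-Fed and RYGB-Success arrays had 5.67 to 8.22. Its part in the comparisons with RYGB-Fail was not tested either.

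Most macrophage and antigen presentation genes had lower means in RYGB-Success than in Pair-Fed, unlike the lymphocyte genes. Of 14 tested macrophage genes, 1 was higher in RYGB-Success than in Pair-Fed (58.2% of all tested probe sets were), and the median difference was -1.02. At an unadjusted p under 0.05 in limma 4 were lower (3.02% of all were), and 0 passed. The list mean on RYGB-Success 3 was 9.03, against 8.77 to 10.7 on the other fat arrays. Csf1r, the receptor for the macrophage growth factor, read 551, 346 and 670 in RYGB-Success against 1943, 1225 and 1215 in Pair-Fed (difference of -1.50 ± 0.48; SE; limma, adjusted p of 0.735). Of 11 tested genes of class II presentation, which B cells also carry, 2 were higher in RYGB-Success, with a median of -0.76 (0 passed and none had an unadjusted p under 0.05 in limma). The mean of all 12 class II genes was nevertheless highest on RYGB-Success 3, at 10.3, where RYGB-Success 1 and 2 had 8.98 and 8.96. It was only just the highest, since RYGB-Fail 1 had 10.2 and the Pair-Fed arrays had 9.65 to 9.95. Of the 12 genes, 3 had their highest signal on RYGB-Success 3. RYGB-Fail also had lower means than Pair-Fed for most macrophage and class II genes. Of the 14 tested macrophage genes 0 were higher in RYGB-Fail, with a median difference of -0.52. Of the 11 tested class II genes 2 were higher, with a median of -0.74, where 41.9% of all tested probe sets were higher.

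**Figure D4:**
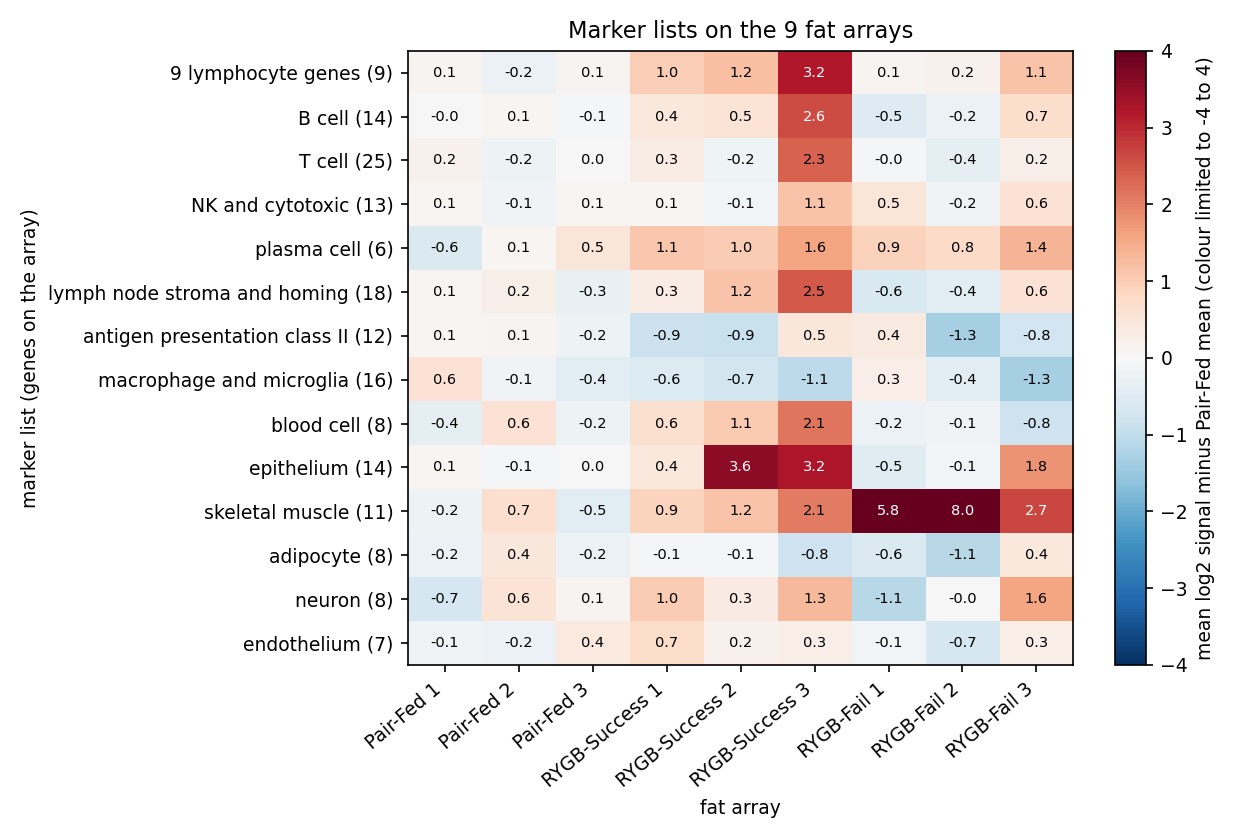
Mean log2 signal of each marker list on each of the 9 fat arrays minus the mean of the 3 Pair-Fed arrays, with the number of genes on the array in brackets; the colour scale stops at -4 and 4. RYGB-Success 3 shows the highest value for the 9 lymphocyte genes (3.22), B cell genes (2.61) and T cell genes (2.35), epithelial genes are high on RYGB-Success 2 and 3, and skeletal muscle genes are high on RYGB-Fail 1 and 2.

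The mean log2 signal of the 9 lymphocyte genes was 7.35, 6.99 and 7.34 in Pair-Fed, 8.22, 8.45 and 10.45 in RYGB-Success and 7.35, 7.40 and 8.37 in RYGB-Fail. The non-member genes whose log2 signal was most like this profile over the 9 fat arrays were Epsti1 (Pearson r of 0.974), Ccl19 (0.946), Chi3l1 (0.943), Cflar (0.941), Ldb1 (0.941), Txndc16 (0.939), Icos (0.934) and the immunoglobulin gene Ighvl1 (0.933). These correlations over 9 arrays are descriptions, since the genes were chosen by them and all share the high point of RYGB-Success 3. Without that array they ran from 0.712 to 0.920. Ighvl1 read 6163 on RYGB-Success 3, 747 on RYGB-Success 2 and 125 to 341 on the others.

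Among themselves the 9 genes fell into looser groups once RYGB-Success 3 was set aside. Over the 36 pairs the median r was 0.60 with all 9 fat arrays (-0.30 to 0.95) and 0.20 over the 8 others (-0.47 to 0.93). The B cell pair Ms4a1 and Cr2 had an r of 0.86 with and 0.74 without it, and Cr2 with Lck 0.90 and 0.74. Cd3e with Cd8a had 0.95 and 0.93, where the low Pair-Fed 2 array is shared by both. Cd3d with Cd3e went from 0.70 to -0.05, although both are chains of the same complex. These values describe 8 or 9 arrays whose libraries the genes share.

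In hypothalamus only Cd3e 1379791_at and Lck passed the filter on signal, which there was a mean of at least 52.7. No lymphocyte probe set passed in any group comparison of hypothalamus, where 0.0107%, 0% and 0.00537% of all probe sets did for RYGB-Success against Pair-Fed, RYGB-Fail against Pair-Fed and RYGB-Success against RYGB-Fail (limma). Lck read 65.8, 36.9 and 53.3 in Pair-Fed, 143, 80.3 and 107 in RYGB-Success and 94.3, 52.0 and 82.5 in RYGB-Fail. RYGB-Success did not overlap with Pair-Fed, with a difference of 1.08 ± 0.46 (SE; limma, unadjusted p of 0.033, adjusted p of 0.350), where 10.8% of all probe sets were higher without overlap. At an unadjusted p under 0.05 in limma, 6.94% of all probe sets were higher. The labels do not say whether arrays of the same number in the tissues come from the same rat. On the hypothalamus array RYGB-Success 3, Cd3d read 7.81 and Cd8a 1385414_at 10.7, within the range of the other hypothalamus arrays. Ms4a1, not tested in hypothalamus, had its highest hypothalamus signal there, 98.1 against 3.44 to 39.0 on the other 8. Blood cell genes were also higher in hypothalamus of RYGB-Success than of Pair-Fed. All 5 tested were higher at an unadjusted p under 0.05 in limma, with a median difference of 3.13, and 0 passed. What part blood has in these hypothalamus signals was not tested.

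Whether the group differences in fat differed from those in hypothalamus was tested as an interaction over 21719 probe sets. None of the 13 lymphocyte probe sets passed for any of the 3 comparisons (0% of all passed in each; limma, lowest adjusted p of 0.725, 1.00 and 0.767). Their median interaction was 1.55 for RYGB-Success against Pair-Fed, -0.08 for RYGB-Fail against Pair-Fed and 1.85 for RYGB-Success against RYGB-Fail, compared with 0.07, -0.09 and 0.14 over all probe sets. Only 2 of the 13 passed the filter in hypothalamus. The others entered through fat, where RYGB-Success 3 helped some to pass, and their hypothalamus means lay below the filter's limit there. These medians therefore lean towards the differences in fat. Of the 13, 0, 0 and 1 had an unadjusted p under 0.05 in limma, against 7.61%, 2.99% and 6.09% of all.

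The tissues themselves differed for these genes. All 13 tested probe sets passed as higher in fat than in hypothalamus (39.7% of all tested probe sets did), with a median difference of 2.78 against 0.24 over all. The filter favoured this direction, since 11 of the 13 entered the test through fat alone. Cxcl13 was between 8.76 and 132 on the hypothalamus arrays, below every fat array (difference of 6.20 ± 0.43; SE; limma, adjusted p of 3.8e-10). Cd8a 1385414_at was between 8.48 and 70.1 in hypothalamus and from 340 upward in fat (4.95 ± 0.42; limma, adjusted p of 6.4e-09), and Cd3d was between 5.14 and 39.5 there and from 55.6 upward in fat (3.54 ± 0.59; limma, adjusted p of 4.2e-05). Ms4a1 was between 3.44 and 98.1 in hypothalamus, and only 4 of 9 fat arrays exceeded that range, although its mean difference passed (2.56 ± 0.70; limma, adjusted p of 0.004). Of all 16 probe sets, 6 had every fat array above every hypothalamus array, where 13% of tested probe sets did.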

How the data were processed

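Total RNA of 9 fat and 9 hypothalamus samples was extracted with Qiagen RNeasy and amplified with Nugen WT Ovation, per the labels' protocols. Each value deposited is the signal intensity of a probe set on a linear scale, made by the authors with MAS5 in GCOS per the submitters' processing notes; their versions are not given in the sources used here, and every array had been scaled to 1 trimmed mean. Such scaling makes a signal relative to the rest of its array, and dim signals are noisy. Genes were named by GEO's platform annotation: 20826 of 31042 probe sets have 1 symbol, 436 several and 9780 none.

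The signals were taken to log2 without a pseudocount. limma 3.58.1 in R 4.3.3 fitted 1 mean per group, with a mean-variance trend, on the 60% of probe sets with the highest mean log2 signal in a tissue (18625), or on those passing in either tissue (21719) for comparisons between tissues. Tests were 2-sided with Benjamini-Hochberg adjustment over all probe sets tested. The fits were tested on simulated data. Tables and figures were made with Python 3.11.15, pandas 2.3.3 and matplotlib 3.10.9.

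The named genes were all probe sets of the 9 genes, up to 4 genes per marker list with the lowest unadjusted p between RYGB-Success and Pair-Fed in fat (brightest probe set per gene), and the 8 genes most like the mean profile. The members and lists were chosen with earlier results of these data known. Alternatives were a pseudocount of 50, no filter, the upper 40%, quantile normalization, median centring, low signals held at the filter's signal, array weights, the replicate number as a block and leaving out each array. Samples with the same number deviated from their group means with correlations of -0.13 to 0.29 in fat and -0.16 to 0.07 in hypothalamus. Between the tissues, for the same group and number, the correlations were -0.07 to 0.13. The numbers were therefore not taken to pair the samples. The number of arrays limits the precision, and so does the noise of dim signals.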

Additional observations from a re-analysis of the deposited data

How the results depend on the processing

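No lymphocyte probe set passed in fat under any setting that kept all arrays, and the median lymphocyte difference between RYGB-Success and Pair-Fed stayed between 1.29 and 1.79 (0.66 to 2.07 when 1 array was left out, 0.66 without RYGB-Success 3). With array weights 39, 35 and 26 probe sets passed in fat (RYGB-Success against Pair-Fed, RYGB-Fail against Pair-Fed, RYGB-Success against RYGB-Fail), none of them a lymphocyte gene, and 12, 18 and 5 passed as interactions with tissue. The stricter filter left 3, 3 and 2 lymphocyte probe sets as higher, because it tests fewer of them, and left none to summarise in hypothalamus. With array weights 7 of 13 were higher in RYGB-Fail than in Pair-Fed. Cd4 turned from higher to lower in RYGB-Success against Pair-Fed after quantile normalization (-0.18) and median centring (-0.12), and against RYGB-Fail after both (-0.12 and -0.086) and with low signals held (-0.071); the cause was not tested. In hypothalamus, probe sets passing for RYGB-Success against Pair-Fed numbered 1 (stricter filter), 4 (low signals held) and 6 (median centring, array weights), and those passing against RYGB-Fail numbered 2 with the pseudocount, no filter, quantile normalization, median centring, low signals held or the replicate block, and 6 with array weights. In the comparison of tissues Cd3e 1379791_at no longer passed after median centring (1.11; limma, adjusted p of 0.068) and Cr2 1379446_at with array weights (1.55; limma, adjusted p of 0.067).

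Leaving out 1 array at a time, the probe sets that passed numbered in fat 0 to 22 between RYGB-Success and Pair-Fed (22 without RYGB-Success 1), 0 to 42 for RYGB-Fail against Pair-Fed (42 without RYGB-Fail 3) and 0 to 1116 for RYGB-Success against RYGB-Fail (1116 without RYGB-Fail 3, 13 without RYGB-Success 1), with 0 to 1 lymphocyte probe sets among the last, Ms4a1 at 4.81. They numbered 1 to 65 and 0 to 6 in hypothalamus for RYGB-Success against Pair-Fed and against RYGB-Fail, and 0 to 42, 0 to 28 and 0 to 98 as interactions. Lymphocyte probe sets higher in RYGB-Fail than in Pair-Fed numbered 4 to 11. Cd3e 1389997_at ranged from -0.094 to 1.61 against Pair-Fed and from -0.29 to 1.41 against RYGB-Fail, and against RYGB-Fail Cxcl13 ranged from -0.26 to 0.35 and Cd4 from -0.32 to 0.60. With the replicate block 0 lymphocyte probe sets passed in fat and 13 between tissues, as without it, and 1 probe set passed as an interaction for RYGB-Fail against Pair-Fed. Without detection calls in the values used here, signals near the filter's limit cannot be told from background.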
